A study of Homo sapiens with 18 samples.

Results

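THP-1 cells with an active NOTCH1 receptor were compared with THP-1 cells in which Notch-dependent transcription was blocked, both without IL-4. The comparison takes the 3 libraries titled NIC1 and the 3 titled DNMAML that were left unstimulated, 6 of the 18 libraries of the series, and describes all genes tested in them. THP-1 is an established human monocytic leukaemia line, and the phorbol ester PMA turns it into adherent, macrophage-like cells. Per the labels, all groups were transduced with a retroviral MSCV vector that also carries GFP, sorted for GFP and given PMA (5 ng/ml, 48 h). NIC1 cells carried the MYC-tagged intracellular domain of NOTCH1, DNMAML cells a dominant-negative Mastermind-like construct, and IRES cells, used here as a reference, the empty vector. The 3 libraries of each group carry experiment numbers 1, 2 and 3. Whether each number stands for its own transduction or culture is not stated in the labels. The main p-values reflect the spread left between libraries after differences between experiment numbers are taken out. That spread was estimated over the NIC1, DNMAML and IRES libraries together, and part or all of it may be technical. The labels name 1 cell line, give no level of either vector and do not say whether a sorted population was 1 clone.

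Notch receptors are cleaved when a ligand on a neighbouring cell pulls on them, and the freed intracellular domain enters the nucleus. There it binds the DNA-binding protein RBPJ and a Mastermind-like co-activator, and this complex switches on target genes such as those of the HES and HEY repressors. The intracellular domain alone drives the pathway without ligand, whereas dominant-negative Mastermind-like occupies the complex without recruiting the machinery that activates transcription. In monocytes and macrophages the pathway is known to act on differentiation and on inflammatory genes.

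The 6 libraries held between 12410668 and 14473380 counts in genes and between 21067 and 21495 genes with at least 1 count. Levels are given as CPM, a gene's counts relative to the library size after TMM scaling. The first principal component of the 9 unstimulated libraries (47.1% of the variance) set experiment 2 apart from experiments 1 and 3 in every construct. Both the first and the second component (18.4%) placed the NIC1 library highest within each experiment. On the first, NIC1 stood at -0.487, 39.5 and -0.137 in experiments 1, 2 and 3 and DNMAML at -30.0, 23.8 and -23.9. The first component thus mixed experiment and construct, with a wider gap between experiment 2 and the other experiments than between constructs. Differences were tested within experiments. Mitochondrial genes took 1.48% to 2.81% of counts in NIC1 and 1.63% to 2.98% in DNMAML libraries. IRES replicate 3, which enters the estimate of the spread, stood apart with 23179 genes detected, and without it 1040 genes were called.

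The identity of the cells was checked on markers. The summed level of 10 macrophage markers was between 1782 and 2003 CPM in NIC1 and between 1880 and 1953 CPM in DNMAML libraries, and none was at 0 in either group. CD14, the co-receptor for bacterial lipopolysaccharide, had only 131 counts over the NIC1 and 170 over the DNMAML libraries, and CD68, whose locus overlaps another annotated gene, had 43 and 30. SPI1, which encodes the myeloid master regulator PU.1, was measured at 338 ± 24 CPM (SD, n = 3) in NIC1 and 348 ± 24.9 CPM in DNMAML cells. The ranges of the summed B cell markers (15.5 to 22 CPM in NIC1, 12.3 to 21.8 CPM in DNMAML) and of the fibroblast and epithelial markers (112 to 169 and 113 to 175 CPM) overlapped between the groups. Erythroid and megakaryocyte markers summed to between 1.04 and 2.08 CPM in NIC1 and between 0.301 and 0.660 CPM in DNMAML libraries, with HBB and PF4 at 0 in both.

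Active NOTCH1 and DNMAML separated the cells at many genes, mostly by small amounts. The 12 genes that stood highest in NIC1 cells by the rule given further on were CD3G, CD1C, ENTPD2, SETBP1, CD3D, PPP1R3A, KRT3, TPRG1, the cytokine gene LTB, SAMD4A, the Notch target DTX1 and the receptor gene IL1RL1. The Notch targets HES1 and HES4, 14 of 27 immediate early genes, MAF, MMP7, TGM2 and the very abundant SPP1 and MMP9 were higher as well. The fructose transporter gene SLC2A5, MMP2, AOC1 and ITGAM were lower. Among 23 tested genes of lipid efflux and fatty acids 7 were lower and 2 higher, against 4.42% and 5.24% of all genes. The median log2 change of that list was -0.02, so the list did not shift as a whole.

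With edgeR's quasi-likelihood F test and the experiment number as a block, 1410 of 14601 genes passed an adjusted p of 0.05 (Benjamini-Hochberg over all genes tested), which is 9.66% of them and is what "called" means here. Of these, 765 were higher in NIC1 (5.24% of genes tested) and 645 lower (4.42%). The size was at least 1 on the log2 scale for 244 called genes, 186 higher and 58 lower, and under 0.5 for 676. For 931 called genes (66.0%) the 3 NIC1 and the 3 DNMAML libraries did not overlap, against 16.3% of all genes tested. The number of calls rests on the block: without it, 70 genes (0.479%) were called, 53 higher and 17 lower, and in a blocked fit of the 6 libraries alone 838 (5.86%) were called. Leaving out experiment 3 left 471 calls, and leaving out single DNMAML libraries left 880, 915 and 819 for replicates 1, 2 and 3. In bulk RNA, a change in the share of cells that express a gene and a change in RNA per cell cannot be told apart.

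**Figure D1:**
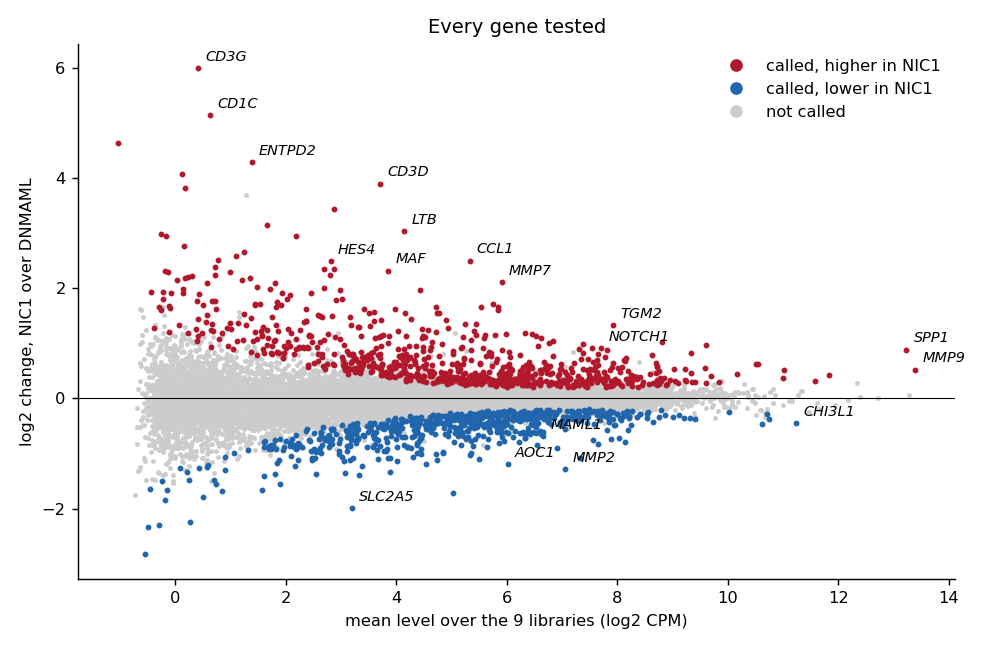
Each point is 1 of the 14601 genes tested, with its mean level over the 9 unstimulated libraries (log2 CPM, horizontal) and its log2 change in NIC1 over DNMAML (vertical); red and blue mark called genes. The called genes spread over the whole range of levels, and they reach from -2.83 (MYBPHL, named for its place at the edge) to 5.99 (CD3G).

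The plot of every gene tested shows that the called genes were not confined to rare transcripts. The 765 genes higher in NIC1 had a median log2 change of 0.57 and the 645 lower genes one of -0.48. Protein-coding genes made up 94.9% of the called genes and 87.1% of all genes tested. The mean of the IRES libraries lay between those of NIC1 and DNMAML for 93.0% of called genes (50.9% of all tested), and nearer to DNMAML on the log2 scale for 78.9% (59.5% of all tested). Genes chosen for a gap between NIC1 and DNMAML are more likely to have a middle group between them, so these shares are descriptions. In the same fit 514 genes (3.52%) were called between NIC1 and IRES, 366 higher (2.51%) and 148 lower (1.01%) in NIC1. Between DNMAML and IRES 3 genes (0.0205%) were called, 2 higher (0.0137%) and 1 lower (0.00685%) in DNMAML, with 952 at an unadjusted p under 0.05. MAML1 and MAF were among the 3. Both of these contrasts use the same IRES libraries.

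Of the 108 called genes that are described by the rule for named genes, 17 were also called without the block: MAML1, HES4, DTX1, CD3D, CD3G, CD1C, PPP1R3A, TPRG1, SAMD4A, MMP2, PALLD, MAF, ITGAM, PRTN3, SPARC, ITGB7 and BCL2A1. The calls of the other named genes, NOTCH1 and HES1 among them, rest on the comparison within experiments. Of the 108, 60 were called in each of 10 fits that left out 1 library or 1 experiment.

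The genes behind the vectors were examined first. NOTCH1 (chromosome 9, 136494433 to 136545786, minus strand, in GRCh38), the receptor gene whose intracellular part NIC1 encodes, was measured at 246, 350 and 267 CPM in the NIC1 libraries of experiments 1, 2 and 3 and at 133, 178 and 145 CPM in the DNMAML libraries. All 3 NIC1 libraries lay above all 3 DNMAML libraries. The log2 change was 0.92 ± 0.0582 (SE; edgeR adjusted p = 5.33e-06, without the block 0.0753). MAML1 (chromosome 5, 179732850 to 179777286, plus strand), a Mastermind-like co-activator gene, was measured at 76.1, 82.3 and 87.7 CPM with NIC1 and 132, 123 and 139 CPM with DNMAML. Here every DNMAML library was higher, with a log2 change of -0.68 ± 0.0647 (adjusted p = 5.83e-05). Counts of both genes include any vector reads that align to them, so neither value gives the level of the cell's own transcript. Both are in the direction that the labels give.

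Direct targets of the Notch complex come next. Of 20 listed Notch target genes 13 could be tested, and 5 were called higher in NIC1 (HES1, HES4, HEY1, DTX1 and NOTCH3) and 1 lower (IGF1R). The called share was 46.2% against 9.66% of all genes tested, and the median log2 change 0.33 against -0.00195. RBPJ is known to bind sites with the core TGGGAA. The 250 bases before the start of 2 repressor genes that carry this core on either strand are shown, together with those of CD3D and CCL1, which are described further on and also carry it. Sequences are from RefSeq (GRCh38.p14), 5′ to 3′ on the strand of the gene, and capitals mark TGGGAA or its reverse complement TTCCCA. HES4 lies at chr1:1000098-1000347 (minus strand), HES1 at chr3:194135898-194136147 (plus), CD3D at chr11:118342706-118342955 (minus) and CCL1 at chr17:34363234-34363483 (minus).
HES4: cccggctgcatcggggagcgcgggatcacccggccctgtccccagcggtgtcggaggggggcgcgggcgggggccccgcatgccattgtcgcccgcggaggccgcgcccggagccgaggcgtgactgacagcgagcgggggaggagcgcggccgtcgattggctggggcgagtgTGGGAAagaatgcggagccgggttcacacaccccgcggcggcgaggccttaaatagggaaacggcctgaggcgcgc
HES1: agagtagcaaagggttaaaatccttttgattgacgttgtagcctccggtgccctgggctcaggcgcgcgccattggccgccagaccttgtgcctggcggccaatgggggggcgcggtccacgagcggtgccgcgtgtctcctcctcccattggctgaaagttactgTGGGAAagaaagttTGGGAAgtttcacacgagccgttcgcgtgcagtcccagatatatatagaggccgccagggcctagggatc
CD3D: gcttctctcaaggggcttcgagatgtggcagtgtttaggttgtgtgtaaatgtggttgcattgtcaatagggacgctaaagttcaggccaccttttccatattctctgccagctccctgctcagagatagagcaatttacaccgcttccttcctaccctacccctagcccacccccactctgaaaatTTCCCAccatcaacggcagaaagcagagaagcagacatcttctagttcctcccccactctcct
CCL1: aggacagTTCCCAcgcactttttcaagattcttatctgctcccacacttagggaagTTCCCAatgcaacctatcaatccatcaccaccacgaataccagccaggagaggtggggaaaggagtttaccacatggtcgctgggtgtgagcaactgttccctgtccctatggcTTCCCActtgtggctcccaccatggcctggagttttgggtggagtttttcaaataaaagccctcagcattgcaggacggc
The core begins 76 bases before the start in HES4, 84 and 70 bases before it in HES1, 63 bases before it in CD3D and 243, 194 and 80 bases before it in CCL1. It is a common string: 21.1% of 27305 promoters of this length hold it, as do 19.4% of 10879 promoters of tested genes, 17.7% of 588 promoters of genes called higher, 17.6% of 489 promoters of genes called lower and 3 of 9 of the Notch targets tested. The string was thus no more frequent among genes called higher than among those called lower. The promoters shown were picked for carrying it. HEYL, a listed Notch target whose promoter holds 2 cores, did not pass (log2 change -0.46 ± 0.212, adjusted p = 0.212), and the promoters of NOTCH3, LTB, MAF, SAMD4A, ENTPD2, IL1RL1 and MMP7, all called higher, hold 0.

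HES4 (chromosome 1, 998962 to 1000172, minus strand), a basic helix-loop-helix repressor, was measured at 12, 18.5 and 14.7 CPM in the NIC1 libraries and at 2.47, 3.01 and 2.49 CPM in the DNMAML libraries. The lowest NIC1 library lay well above the highest DNMAML library. Its level was 5.62-fold higher, a log2 change of 2.49 ± 0.169 (adjusted p = 6.20e-06, without the block 0.0082). HES1 (chromosome 3, 194136145 to 194138732, plus strand), the best studied repressor of the family, was measured at 23.6, 32.7 and 26.0 CPM with NIC1 and 6.0, 16.5 and 7.23 CPM with DNMAML. The groups did not overlap, but the DNMAML library of experiment 2 lay well above the other two. The log2 change was 1.55 ± 0.176 (adjusted p = 0.000355, without the block 0.216). DTX1 (chromosome 12, 113056709 to 113098028, plus strand), which encodes the E3 ubiquitin ligase Deltex, was measured at 4.42, 6.14 and 3.92 CPM with NIC1 and 0.467, 1.32 and 0.527 CPM with DNMAML. Every NIC1 library was higher, and the log2 change was 2.66 ± 0.253 (adjusted p = 5.83e-05). HEY1, a repressor related to HES1, was measured at 4.11, 4.94 and 4.0 CPM against 1.80, 2.27 and 1.51 CPM, again without overlap. Its log2 change of 1.22 ± 0.218 (adjusted p = 0.00349) lost the call without experiment 3 (adjusted p = 0.0654). NOTCH3, a receptor gene that Notch itself induces in other cells, was measured at 205, 356 and 304 CPM against 138, 205 and 164 CPM, so that the NIC1 library of experiment 1 was level with the DNMAML library of experiment 2. Its log2 change was 0.75 ± 0.0890 (adjusted p = 0.000288). NRARP, a feedback inhibitor of the complex, was measured at 6.01, 13.8 and 10.5 CPM against 6.60, 6.96 and 7.38 CPM and did not pass (log2 change 0.49 ± 0.190, adjusted p = 0.132).

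**Figure D2:**
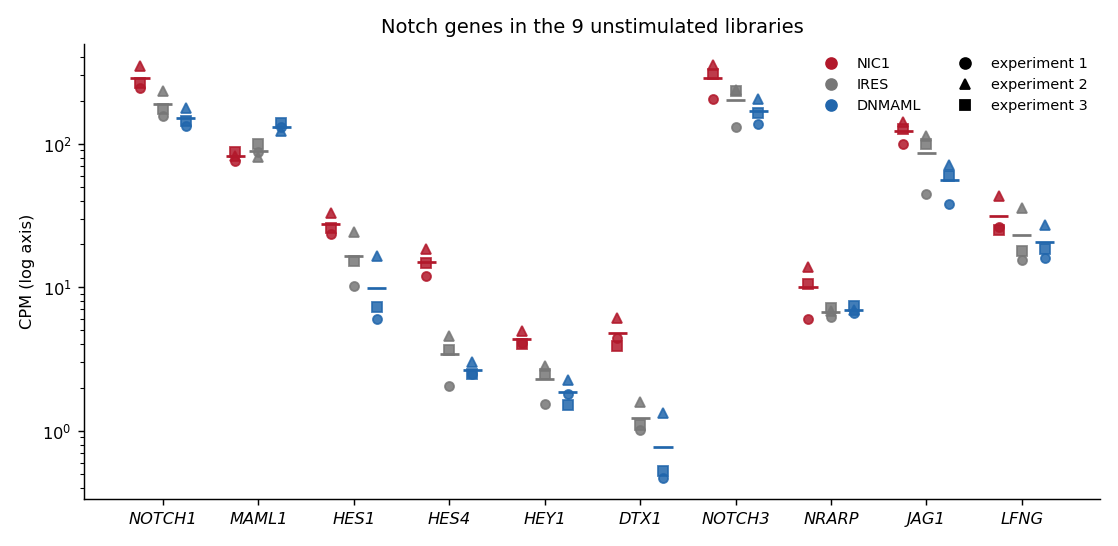
Levels of 10 Notch genes in each of the 9 unstimulated libraries (CPM, log axis), with a bar at each group's mean; colour gives the construct and marker shape the experiment. HES4 and DTX1 show a wide gap between NIC1 and both other groups, while NOTCH3, NRARP and LFNG overlap between NIC1 and DNMAML.

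Among 40 tested components of the pathway, 5 were called higher (NOTCH1, JAG1, NUMB, DTX4 and LFNG) and 3 lower, MAML1 and MAML3 among them. The median was -0.04, and 20% were called against 9.66% of all genes. NOTCH1 and MAML1 are the genes behind the vectors and may hold vector reads, so their calls do not count as responses of the pathway. JAG1 (chromosome 20, 10637684 to 10673999, minus strand), which encodes a Notch ligand, was measured at 99.7, 142 and 126 CPM with NIC1 and 37.7, 71.3 and 59.3 CPM with DNMAML. The groups did not overlap, and the log2 change was 1.16 ± 0.138 (adjusted p = 0.000814). LFNG, which encodes a glycosyltransferase that tunes how receptors respond to ligands, was measured at 26.5, 43.4 and 24.9 CPM against 16.1, 27.2 and 18.5 CPM, with a log2 change of 0.61 ± 0.107 (adjusted p = 0.00309). The libraries overlapped because experiment 2 was high in both. The log2 changes were 0.41 for NUMB, an inhibitor of the receptor, 0.84 for DTX4 and -0.50 for the co-activator gene MAML3. These calls were less firm: over the 10 fits with libraries left out NUMB was called in 7, DTX4 in 1 and MAML3 in 9, and IGF1R (log2 change -0.31) in 3. The highest adjusted p among those fits was 0.116, 0.203, 0.0976 and 0.291 respectively.

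The largest changes were ranked among called genes with a symbol, a mean of at least 2 CPM in NIC1 or DNMAML, no overlap between the groups and 1 direction in all 3 experiments. The rule left 893 genes and takes 12 on each side. On the higher side these were CD3G, CD1C, ENTPD2, SETBP1, CD3D, PPP1R3A, KRT3, TPRG1, LTB, SAMD4A, DTX1 and IL1RL1, with log2 changes between 2.58 and 5.99. All 12 were called in each of the 10 leave-out fits. Since the rule asks for no overlap and 1 direction, neither is a finding for these genes.

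The CD3 genes encode the signalling chains of the T cell receptor. CD3D (chromosome 11, 118338954 to 118342744, minus strand) was measured at 30.8, 41.7 and 24 CPM with NIC1 and 1.27, 4.69 and 0.980 CPM with DNMAML. Its level was 14.9-fold higher in NIC1 cells, a log2 change of 3.89 ± 0.292 (adjusted p = 6.93e-05, without the block 0.045). CD3G, its neighbour on the opposite strand (118344344 to 118355161, plus), had 63, 37 and 36 counts in the NIC1 libraries and 2, 0 and 0 in the DNMAML libraries. The ratio of the summed levels was 73.0 with an exact 95% interval of 19.8 to 609, which covers counting error only. The fitted log2 change was 5.99 ± 0.563 (adjusted p = 5.59e-05). CD3E, the third gene of the cluster, had 5 counts over the NIC1 and 1 over the DNMAML libraries and was not tested.

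Of 13 tested T cell genes, 4 were called higher (CD3D, CD3G, CD6 and TRAC) and none lower, which is 30.8% against 9.66% of all genes. CD6, an adhesion receptor gene, changed by 0.56 ± 0.0841 (adjusted p = 0.0012), and TRAC, the constant segment of the T cell receptor alpha chain, by 0.28 ± 0.0654 (adjusted p = 0.0183). TRAC was measured at 113, 113 and 97.2 CPM with NIC1 and 91.8, 91.0 and 84.1 CPM with DNMAML, and was called in 6 of 10 leave-out fits (highest adjusted p = 0.116). The 11 T cell markers summed to between 129 and 164 CPM in NIC1 and between 91.5 and 101 CPM in DNMAML libraries. The defining markers CD2 and CD247 were at 0 in all NIC1 libraries, CD5 had 1 count there, and LCK had 47 counts against 70 in DNMAML. TRBC2, a constant segment of the beta chain, had 32 counts against 13 and was not tested. IL7R, a cytokine receptor gene, and GATA3, a transcription factor gene, had log2 changes of 1.05 ± 0.398 and 0.69 ± 0.290 and did not pass (adjusted p = 0.128 and 0.169).

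CD1 molecules present lipids to T cells and are typical of dendritic cells and cortical thymocytes. CD1C (chromosome 1, 158289786 to 158293630, plus strand) was measured at 4.64, 2.63 and 3.76 CPM with NIC1 and at 0.0667, 0.220 and 0 CPM with DNMAML, where it had 4 counts in all. Its log2 change was 5.13 ± 0.482 (adjusted p = 5.58e-05). CD1A was measured at 2.44, 1.99 and 0.961 CPM against 0.133, 0.513 and 0.151 CPM, with a log2 change of 2.77 ± 0.524 (adjusted p = 0.00515) that lost the call without experiment 3 (adjusted p = 0.0688). CD1D changed by 0.74 ± 0.128 (adjusted p = 0.00293). Of 13 tested dendritic cell genes these 3 were called higher, while FLT3, a cytokine receptor gene of dendritic progenitors, and LAMP3, a gene of mature dendritic cells, were called lower. LAMP3 was measured at 7.92, 4.70 and 8.33 CPM against 14.0, 6.23 and 14.5 CPM, so the groups overlapped through the low value of experiment 2 (log2 change -0.70 ± 0.135, adjusted p = 0.00557, 0.132 without experiment 3). In all 38.5% of the list was called, against 9.66% of all genes, and its genes did not move in 1 direction.

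LTB (chromosome 6, 31580525 to 31582522, minus strand) encodes lymphotoxin beta, a membrane cytokine of the tumour necrosis factor family. It was measured at 34.8, 50.0 and 30.6 CPM with NIC1 and 3.93, 7.26 and 3.47 CPM with DNMAML, a log2 change of 3.03 ± 0.244 (adjusted p = 0.000109). Its increase was alike in the 3 experiments, at 3.10, 2.76 and 3.09 on the log2 scale. ENTPD2, an enzyme gene that breaks down extracellular ATP, was measured at 3.27, 11.3 and 1.84 CPM against 0.0667, 0.513 and 0.226 CPM, a log2 change of 4.29 ± 0.402 (adjusted p = 5.58e-05). SAMD4A, an RNA-binding repressor of translation, was measured at 7.69, 15.1 and 8.49 CPM against 0.600, 1.91 and 1.58 CPM, a log2 change of 2.95 ± 0.217 (adjusted p = 9.60e-06). KRT3, a corneal keratin gene, was measured at 12.6, 19.6 and 15.0 CPM against 0.667, 3.15 and 0.904 CPM (log2 change 3.44 ± 0.312). PPP1R3A, a glycogen-targeting subunit of protein phosphatase 1, TPRG1 and SETBP1 changed by 3.82 ± 0.420, 3.15 ± 0.355 and 4.07 ± 0.660, each from a DNMAML mean under 1 CPM. The size of such changes depends on few counts: SETBP1 had 5 counts and PPP1R3A 7 over the 3 DNMAML libraries.

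IL1RL1 (chromosome 2, 102311502 to 102352037, plus strand), the gene of the receptor for IL-33, was measured at 4.11, 4.70 and 4.17 CPM with NIC1 and 0.667, 1.32 and 0.226 CPM with DNMAML. Its log2 change was 2.58 ± 0.343 (adjusted p = 0.000526). After this value was seen, the other receptor genes of its cluster on chromosome 2 were looked up. Of the 6 genes, 4 had enough counts to be tested and all 4 were called higher, against 5.24% of all genes tested. IL1RL1 is 1 of the 4 and prompted the look-up, so its call adds nothing to this count. IL1R1, the signalling receptor for IL-1, changed by 1.71 ± 0.239, IL18R1 by 1.22 ± 0.102 and IL18RAP by 1.62 ± 0.262. Without the block none of the 4 was called (edgeR adjusted p = 0.0756 for IL1R1, 0.0619 for IL1RL1, 0.136 for IL18R1 and 0.119 for IL18RAP). IL18R1 was measured at 58.6, 75.5 and 58.6 CPM against 23.3, 37.2 and 23.6 CPM, without overlap. The annotated spans of IL1RL1 and IL18R1 overlap on 1 strand, so part of their reads cannot be told apart.

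On the lower side the 12 genes were SLC2A5, TFAP2A-AS1, KIF26A, TMEM176B, FBLN2, MMP2, SRCIN1, ABCB10P1, AOC1, ALDH2, MROCKI and PALLD, with log2 changes between -1.99 and -1.13. The changes were smaller than on the higher side. SLC2A5 (chromosome 1, 9035107 to 9088478, minus strand), a fructose transporter gene, was measured at 3.81, 1.67 and 4.65 CPM with NIC1 and 20.6, 6.52 and 13.6 CPM with DNMAML. The DNMAML level was 3.96-fold higher (log2 change -1.99 ± 0.205, adjusted p = 0.000109). AOC1, the gene of the diamine oxidase that breaks down histamine, was measured at 45.5, 27.7 and 40.6 CPM against 117, 51.0 and 98.6 CPM (log2 change -1.19 ± 0.106, adjusted p = 5.83e-05). Both genes were lowest in experiment 2 in both groups. TMEM176B, a membrane protein gene of myeloid cells, was measured at 9.75, 5.66 and 7.77 CPM against 28.5, 10.2 and 21.7 CPM (log2 change -1.34 ± 0.158, adjusted p = 0.000246). PALLD, an actin-crosslinking protein gene, and ALDH2, the mitochondrial aldehyde dehydrogenase, changed by -1.13 ± 0.101 and -1.18 ± 0.183. SRCIN1, KIF26A and FBLN2, a matrix protein gene, changed by -1.22 ± 0.173, -1.37 ± 0.285 and -1.30 ± 0.270. TFAP2A-AS1 and ABCB10P1 are an antisense gene and a pseudogene, whose reads may come in part from their partner or parent gene. KIF26A was called in 9 of the 10 leave-out fits, FBLN2 and the long non-coding RNA MROCKI in 8 and TFAP2A-AS1 in 7, with highest adjusted p of 0.0503, 0.106, 0.0861 and 0.0791.

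**Figure D3:**
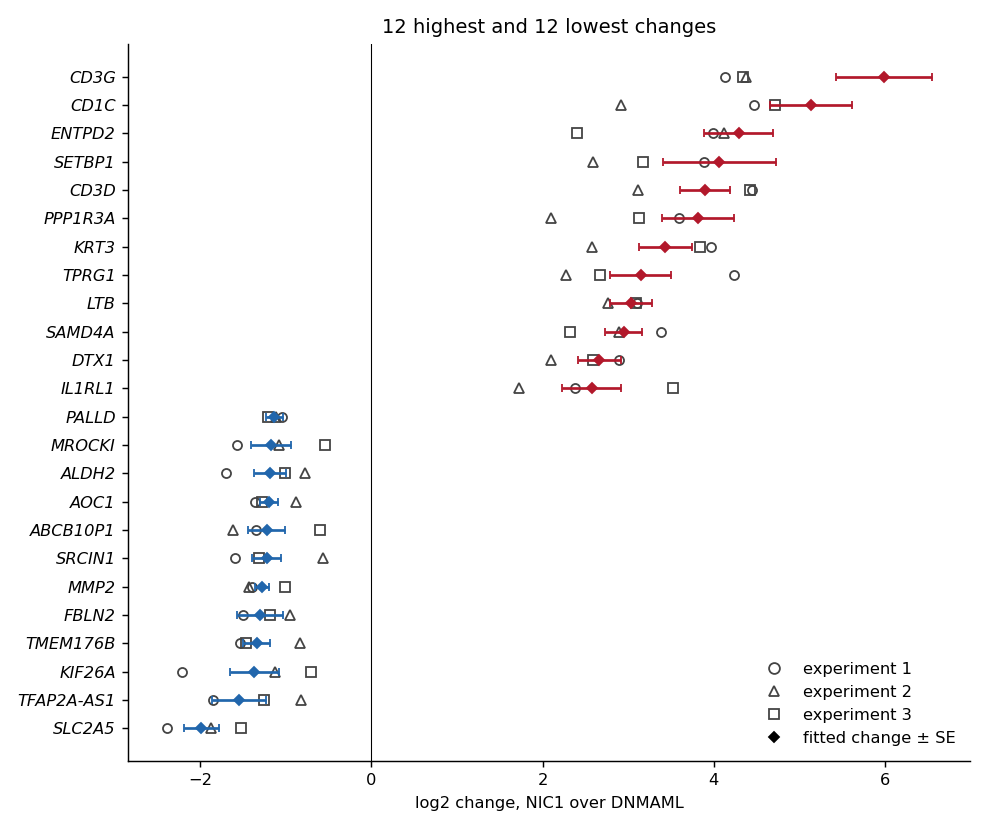
Log2 change in NIC1 over DNMAML for the 12 highest and 12 lowest genes, as the fitted change with its SE (diamonds) and as the difference within each experiment (open symbols, computed with a prior count of 2, which draws genes of few counts towards 0). The higher side runs from 2.58 to 5.99 and the lower side from -1.13 to -1.99.

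The plot of the highest and lowest changes shows experiment 2 nearest to 0 for several genes, among them CD1C, CD3D, DTX1, SRCIN1 and TMEM176B. CD3D changed by 4.45, 3.11 and 4.42 in experiments 1, 2 and 3. ENTPD2 and SLC2A5 were nearest to 0 in experiment 3 instead.

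Macrophages secrete matrix proteins and the proteases that degrade them. Of 26 tested genes of this list, 7 were called higher (MMP7, MMP9, TIMP1, TIMP3, SPP1, COL6A1 and COL6A2) and 4 lower (MMP2, TIMP2, SPARC and FN1), with a median of 0.11. The called share was 42.3%, against 9.66% of all genes. The list split, proteases and inhibitors falling on both sides. MMP7 (chromosome 11, 102520508 to 102530753, minus strand), matrilysin, was measured at 172, 59.3 and 113 CPM with NIC1 and 32.9, 13 and 33.8 CPM with DNMAML. The groups did not overlap although experiment 2 was low in both, and the level was 4.30-fold higher (log2 change 2.10 ± 0.133, adjusted p = 1.77e-05). MMP2 (chromosome 16, 55389700 to 55506691, plus strand), gelatinase A, was measured at 65.3, 70.6 and 94.4 CPM against 172, 190 and 190 CPM. Every NIC1 library was below every DNMAML library (log2 change -1.28 ± 0.0798, adjusted p = 5.33e-06, without the block 0.0084). MMP9, gelatinase B, was measured at 11012, 16210 and 11353 CPM against 7570, 12018 and 7501 CPM. Its change of 0.52 ± 0.0909 (adjusted p = 0.00293) was alike within experiments, at 0.54, 0.43 and 0.60, although the groups overlapped, and lost the call without experiment 3 (adjusted p = 0.144).

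SPP1 (chromosome 4, 87975650 to 87983426, plus strand), which encodes the secreted phosphoprotein osteopontin, was measured at 14971, 11860 and 13515 CPM with NIC1 and 6399, 7172 and 8421 CPM with DNMAML. No libraries overlapped, and the log2 change was 0.88 ± 0.117 (adjusted p = 0.000494). It had the largest gain in CPM of all called genes, followed by MMP9, A2M, TIMP1, LCP1 and TMSB4X. A2M, a broad protease inhibitor, changed by 0.42 ± 0.0880 and TIMP1, an inhibitor of metalloproteinases, by 0.52 ± 0.106. LCP1 and TMSB4X, an actin-bundling and an actin-binding protein gene, changed by 0.32 ± 0.0884 and 0.62 ± 0.0847. TMSB4X was measured at 2051, 1856 and 1783 CPM against 1190, 1311 and 1199 CPM, without overlap. Over the 10 leave-out fits TMSB4X was called in all, TIMP1 in 8, A2M in 7 and LCP1 in 1, where the adjusted p reached 0.228. The 10 most abundant genes took 6.62% to 7.58% of counts in NIC1 and 5.52% to 6.91% in DNMAML libraries.

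The largest losses in CPM were those of CHI3L1, TTYH3, PLD3, APOE, TXNIP and MYH9. CHI3L1, a chitinase-like protein gene of macrophages, was measured at 2118, 2248 and 1658 CPM with NIC1 and 2729, 2490 and 2919 CPM with DNMAML (log2 change -0.44 ± 0.109, adjusted p = 0.022). PLD3, a lysosomal exonuclease gene, changed by -0.38 ± 0.0764 and TTYH3, a membrane channel gene, by -0.47 ± 0.0809. TXNIP, a brake on glucose uptake, changed by -0.37 ± 0.0684, and the non-muscle myosin gene MYH9 by -0.24 ± 0.0669. These were small changes in abundant genes, and the call was kept in 9 leave-out fits for TTYH3 and TXNIP, 6 for PLD3, 4 for CHI3L1, 3 for APOE and 2 for MYH9, with highest adjusted p of 0.0724, 0.0685, 0.179, 0.354, 0.286 and 0.301. SPARC, a collagen-binding matrix protein gene, was measured at 52.1, 51.6 and 53 CPM against 77.2, 77.5 and 70.2 CPM and was called in all of them (log2 change -0.52 ± 0.0787, adjusted p = 0.00122).

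Immediate early genes are switched on within minutes of a stimulus, often through MAP kinases, and many of their products feed back on the same signals. Of 27 genes of this list, all tested, 14 were called higher in NIC1 (EGR1, EGR2, EGR3, IER2, IER5, DUSP1, DUSP2, DUSP5, DUSP6, KLF6, NR4A1, ZFP36, BTG2 and MAFF) and FOS alone lower. Called members made up 55.6%, against 9.66% of all genes. The median was 0.44, and 25 of the 27 lay above 0, whereas 7239 of all 14601 genes tested did. DUSP1 (chromosome 5, 172768090 to 172771195, minus strand), a phosphatase that switches MAP kinases off, was measured at 30.1, 67.8 and 39.1 CPM with NIC1 and 11.3, 28.1 and 17.6 CPM with DNMAML. Within each experiment NIC1 was higher by 1.14 to 1.4 on the log2 scale (fitted change 1.28 ± 0.102, adjusted p = 1.77e-05, without the block 0.329). DUSP6, which acts on ERK, was measured at 290, 379 and 234 CPM against 171, 227 and 174 CPM (log2 change 0.65 ± 0.0770, adjusted p = 0.000245). EGR3, a zinc finger transcription factor gene, was measured at 54.4, 81.4 and 68.7 CPM against 30.3, 43.4 and 46.3 CPM (log2 change 0.77 ± 0.0905, adjusted p = 0.000224). None of these 3 overlapped between the groups.

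FOS, a subunit of the AP-1 factor, went the other way. It was measured at 73.0, 49.5 and 85.9 CPM with NIC1 and 112, 90.7 and 121 CPM with DNMAML (log2 change -0.65 ± 0.0745, adjusted p = 0.00019), and the highest NIC1 library stayed below the lowest DNMAML library. EGR1 and DUSP5, chosen after their values were seen for the size of their change, differed by 1.65 ± 0.216 (adjusted p = 0.00305) and 1.71 ± 0.227 (adjusted p = 0.00425). EGR1 was measured at 50.3, 132 and 46.4 CPM against 9.67, 46.3 and 20.9 CPM, and in experiment 2 both constructs were above their own other libraries. Of 10 feedback inhibitors of MAP kinase signalling, a set put together after the data were seen, 7 were called higher: DUSP1, DUSP2, DUSP5, DUSP6, SPRY2, SPRY4 and SPRED1. Over all genes tested the share called higher was 5.24%. The DUSP genes among the 7 were already counted with the immediate early genes, so the set is not a separate result. For SPRY2 and SPRY4 the groups overlapped. DUSP4, SPRY1 and SPRED2 did not pass. BTG2, an antiproliferative gene that p53 also induces, changed by 0.43 ± 0.0920 (adjusted p = 0.0114) and was called in 5 of 10 leave-out fits (highest adjusted p = 0.165).

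**Figure D4:**
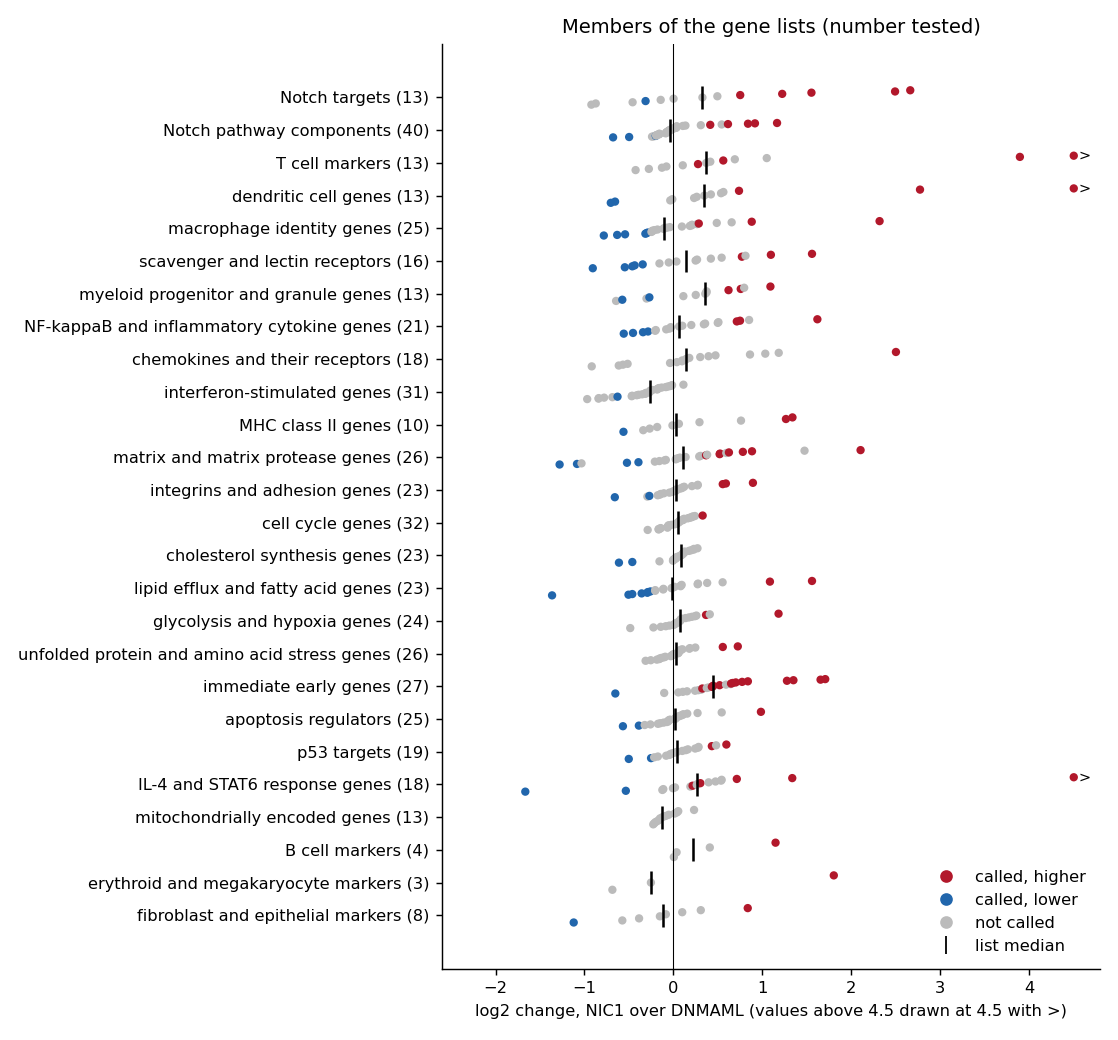
Log2 change in NIC1 over DNMAML for each tested member of 26 gene lists, with the number tested in brackets, called members in red or blue and the list's median as a bar. Immediate early genes lie mostly on the higher side and interferon-stimulated genes mostly on the lower side, the latter with 1 called member.

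The plot of the gene lists sets these groups side by side. In 19 of the 26 lists the share of called members was above the 9.66% of all genes tested. Members and lists were chosen with earlier results of these data known, so this count is a description.

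Macrophage identity genes moved in both directions. Of 25 tested, 3 were called higher (MAF, FCER1G and TYROBP) and 6 lower (ITGAM, CSF1R, LYZ, TLR2, CTSD and APOE), with a median of -0.11. The called share was 36%, against 9.66% of all genes. MAF (chromosome 16, 79585843 to 79600714, minus strand), a transcription factor gene of tissue macrophages, was measured at 25.3, 25.5 and 27.5 CPM with NIC1 and 4.27, 6.16 and 5.35 CPM with DNMAML. Its level was 4.98-fold higher (log2 change 2.32 ± 0.150, adjusted p = 5.33e-06, without the block 0.00569), and the IRES mean of 12.3 ± 3.39 CPM stood between the groups. MAF differed from IRES on both sides, by 1.11 with NIC1 (adjusted p = 0.00108) and by -1.21 with DNMAML (adjusted p = 0.0371). FCER1G, the common gamma chain of Fc receptors, was measured at 322, 358 and 249 CPM against 148, 202 and 156 CPM (log2 change 0.88 ± 0.0973, adjusted p = 0.000252). ITGAM, the CD11b chain of an adhesion receptor, was measured at 226, 200 and 189 CPM against 361, 363 and 332 CPM (log2 change -0.78 ± 0.0719, adjusted p = 5.17e-05), and TLR2, a receptor for bacterial lipopeptides, changed by -0.63 ± 0.101. These 4 genes did not overlap between the groups. APOE (log2 change -0.29 ± 0.0713, adjusted p = 0.0227) and TYROBP, an adaptor of activating receptors (0.28 ± 0.0766, adjusted p = 0.0344), had small changes and were called in 3 and 4 of 10 leave-out fits (highest adjusted p = 0.286 and 0.204).

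Scavenger and lectin receptors were split as well, with 3 of 16 tested higher (CD36, MERTK and TREM1) and 5 lower (SCARB1, OLR1, MRC2, CLEC7A and TREM2). This is 50% called against 9.66% of all genes. CD36 (chromosome 7, 80369575 to 80679277, plus strand), a receptor for oxidised lipoproteins and fatty acids, was measured at 60.5, 27.4 and 42.6 CPM with NIC1 and 15.3, 13.6 and 14.0 CPM with DNMAML. Its log2 change was 1.56 ± 0.151 (adjusted p = 0.000149), without overlap. MERTK, a kinase receptor for dying cells, changed by 0.77 ± 0.0870 (adjusted p = 0.000176). TREM2 was measured at 125, 47.7 and 93.3 CPM against 157, 68.7 and 128 CPM, a small fall within each experiment (log2 change -0.44 ± 0.0698, adjusted p = 0.00178) inside a wide spread between experiments. SCARB1, the receptor for high-density lipoprotein, changed by -0.46 ± 0.0757 (adjusted p = 0.00201).

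Genes of lipid efflux and fatty acids were more often lower, with 7 of 23 called (ABCG1, SREBF1, SCD, FADS1, FADS2, APOC1 and APOE) and 2 higher (LPL and CD36). The called share was 39.1% against 9.66% of all genes, while the list's median was -0.02, near that of all genes tested. ABCG1, a cholesterol exporter gene, was measured at 4.19, 1.28 and 4.25 CPM with NIC1 and 11.3, 2.93 and 11.1 CPM with DNMAML. The groups overlapped only through the DNMAML library of experiment 2 (log2 change -1.36 ± 0.174, adjusted p = 0.000365). LPL, lipoprotein lipase, changed by 1.08 ± 0.174 (adjusted p = 0.00177). SREBF1, a master regulator of fatty acid synthesis, changed by -0.46 ± 0.0780 (adjusted p = 0.00243, 0.0687 without experiment 3). ABCA1, a second cholesterol exporter gene, was measured at 38.1 ± 5.21 and 37.7 ± 15.1 CPM (n = 3 each) and did not pass (log2 change 0.08 ± 0.187). Of 23 tested genes of cholesterol synthesis, TM7SF2 and DHCR7 were called lower, with log2 changes of -0.61 ± 0.0787 and -0.46 ± 0.0730. This is 8.7% called against 9.66% of all genes, and the list as a whole was not lower: 18 of the 23 lay above 0 (median 0.09). DHCR7 was not called without experiment 3 (adjusted p = 0.0679).

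Cytokine genes varied between experiments. Of 21 tested genes of the NF-kappaB and inflammatory list, 3 were called higher (TNF, IL1RN and LIF) and 4 lower (NFKB2, RELB, REL and IL18). This is 33.3% called against 9.66% of all genes. IL1RN, the IL-1 receptor antagonist, was measured at 231, 274 and 191 CPM with NIC1 and 110, 159 and 158 CPM with DNMAML (log2 change 0.71 ± 0.133, adjusted p = 0.00986). IL1B was measured at 151, 365 and 104 CPM against 50.3, 232 and 82.9 CPM, higher with NIC1 in each experiment, and did not pass (log2 change 0.85 ± 0.216, adjusted p = 0.0619). RELB and REL, subunits of NF-kappaB, changed by -0.34 ± 0.0621 and -0.45 ± 0.105, and IL18 by -0.56 ± 0.128. Calls were kept in 9 leave-out fits for RELB, 6 for REL and IL1RN and 5 for IL18, with highest adjusted p of 0.105, 0.221, 0.0694 and 0.0949. Of 18 tested chemokines and receptors CCL1 alone was called, which is 5.56% and under the 9.66% of all genes. CCL1 (chromosome 17, 34360328 to 34363231, minus strand), a ligand of the receptor CCR8, was measured at 62.1, 96.5 and 59.0 CPM against 6.0, 27.4 and 10.5 CPM, without overlap (log2 change 2.50 ± 0.344, adjusted p = 0.00677, without the block 0.236). CCL2, the main monocyte attractant, was measured at 29.2, 84.7 and 18.5 CPM against 7.40, 53.4 and 8.29 CPM and did not pass (log2 change 1.18 ± 0.328, adjusted p = 0.08).

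Interferon-stimulated genes followed the experiment more than the construct. Their 32 listed members summed to 3581, 1584 and 3628 CPM in the NIC1 libraries of experiments 1, 2 and 3 and to 3855, 1362 and 5371 CPM in the DNMAML libraries. Experiment 2 was the lowest in both groups, and the order of the constructs was not the same in all experiments. Of 31 tested, 30 had a negative log2 change (median -0.27), but only GBP2, a guanylate-binding protein gene, passed the test. This is 3.23% called, under the 9.66% of all genes. GBP2 was measured at 19.5, 10.4 and 16.9 CPM against 31.3, 13.3 and 29.1 CPM (log2 change -0.63 ± 0.106, adjusted p = 0.00249, 0.0814 without experiment 3). ISG15, a ubiquitin-like protein gene, was measured at 68.0, 24.9 and 59.8 CPM against 54.8, 19.6 and 91.1 CPM (log2 change -0.02 ± 0.169).

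MHC class II genes were at low levels. Of 10 tested, HLA-DRA and HLA-DRB1 were called higher and HLA-DMB, which helps load peptides, lower (30% called, against 9.66% of all genes). HLA-DRA was measured at 3.65, 1.35 and 3.84 CPM with NIC1 and 1.73, 0.880 and 0.754 CPM with DNMAML, so the groups overlapped through experiment 2 (log2 change 1.34 ± 0.356, adjusted p = 0.0342). The log2 changes of HLA-DRB1, whose reads are shared with other DRB genes, and HLA-DMB were 1.26 ± 0.334 and -0.56 ± 0.162. The calls were kept in 5, 3 and 3 of 10 leave-out fits for HLA-DRA, HLA-DRB1 and HLA-DMB, with highest adjusted p of 0.201, 0.270 and 0.378. CIITA, the switch of the class II genes, did not pass (log2 change 0.76 ± 0.431).

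Genes of myeloid progenitors and granules were higher in 3 of 13 tested cases (PRTN3, GFI1 and MYB) and lower in 2 (CEBPE and RUNX1). The called share was 38.5%, against 9.66% of all genes. PRTN3 (chromosome 19, 840960 to 848175, plus strand), proteinase 3 of neutrophil granules, was measured at 71.0, 67.2 and 69.0 CPM with NIC1 and 31.2, 30.7 and 35.5 CPM with DNMAML. The spread within each group was small beside the gap (log2 change 1.09 ± 0.120, adjusted p = 0.000288, without the block 0.00926). GFI1, a repressor of granulocyte progenitors, and MYB, a factor of immature blood cells, changed by 0.62 ± 0.0815 and 0.76 ± 0.123. CEBPE, a factor of late granulocyte maturation, changed by -0.57 ± 0.135 and was called in 5 of 10 leave-out fits (highest adjusted p = 0.105). S100A8 and S100A9, alarmin genes of mature myeloid cells looked up after the data were seen, changed by -1.4 ± 0.195 and -0.99 ± 0.210. S100A9 was called in 7 of 10 leave-out fits (highest edgeR adjusted p = 0.216). S100A8 was measured at 7.54, 2.39 and 4.97 CPM with NIC1 and 23.2, 3.30 and 14.8 CPM with DNMAML. The groups overlapped for both genes, and neither was called without the block (edgeR adjusted p = 0.535 and 0.536).

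Of 23 tested integrins and adhesion genes, ITGB7, ITGA3 and ITGB5 were called higher and SELPLG and ITGA6 lower. This is 21.7% called against 9.66% of all genes. ITGB7, the beta chain of gut-homing integrins, was measured at 543, 527 and 520 CPM with NIC1 and 348, 332 and 380 CPM with DNMAML, without overlap (log2 change 0.59 ± 0.0707, adjusted p = 0.000256, without the block 0.028). ITGA3, a laminin receptor chain, changed by 0.55 ± 0.0879, ITGB5, a vitronectin receptor chain, by 0.89 ± 0.153 and SELPLG, the ligand of P-selectin, by -0.66 ± 0.165. ITGB5 was called in 7 and SELPLG in 3 of 10 leave-out fits (highest adjusted p = 0.160 and 0.165).

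IL-4 and STAT6 response genes were examined although no IL-4 was given. Of 18 tested, 5 were called higher (TGM2, IL1RN, CTSC, STAT6 and CD1C) and 2 lower (F13A1 and PDCD1LG2), with a median of 0.27. Called members made up 38.9%, against 9.66% of all genes. TGM2 (chromosome 20, 38127387 to 38166578, minus strand), the crosslinking enzyme transglutaminase 2, was measured at 362, 487 and 277 CPM with NIC1 and 117, 208 and 128 CPM with DNMAML. The groups did not overlap, and the log2 change was 1.34 ± 0.135 (adjusted p = 0.000344). CISH, a feedback inhibitor of cytokine receptors, was measured at 2.25 ± 0.290 and 2.23 ± 0.401 CPM (n = 3 each) and did not pass (log2 change 0.02 ± 0.219).

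Genes of survival and stress were examined next. Among 25 tested apoptosis regulators BCL2A1, a survival factor gene, was called higher and BCL2 and BMF, a survival and a death factor gene, lower. This is 12% called, near the 9.66% of all genes. BCL2A1 was measured at 46.2, 43.3 and 34.5 CPM with NIC1 and 19.1, 20.9 and 22.6 CPM with DNMAML, without overlap (log2 change 0.98 ± 0.108, adjusted p = 0.000149). The changes of BMF and BCL2 were -0.57 ± 0.0867 and -0.39 ± 0.0956; BMF lost the call without experiment 3 (adjusted p = 0.0569), and BCL2 was called in 3 of 10 leave-out fits (highest adjusted p = 0.289). Of 26 tested genes of the unfolded protein and amino acid stress list, ATF3 and the cystine transporter gene SLC7A11 were called higher, by 0.72 ± 0.123 and 0.55 ± 0.0971, and the chaperone gene HSPA5 did not pass (-0.03 ± 0.0736). The called share of that list was 7.69%, under that of all genes, and its median was 0.03. Among 19 tested p53 targets PHLDA3 and BTG2 were called higher and CCNG1 and TP53INP1 lower (21.1% called), and CDKN1A did not pass (0.16 ± 0.0805). Over the leave-out fits PHLDA3 was called in 9, CCNG1 in 5 and TP53INP1 in 6 of 10, with highest adjusted p of 0.0715, 0.153 and 0.174.

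Of 24 tested genes of glycolysis and hypoxia, EGLN3 and NDRG1 were called higher, which is 8.33% against 9.66% of all genes. NDRG1, whose groups overlapped, changed by 0.37 ± 0.0835 and was called in 6 of 10 leave-out fits (highest adjusted p = 0.101). The gene of hexokinase 2, HK2, did not pass (log2 change -0.14 ± 0.0990). Of 32 tested cell cycle genes only MCM6, a helicase subunit of DNA replication, was called, which is 3.12% and under the share of all genes. MCM6 changed by 0.33 ± 0.0810 (edgeR adjusted p = 0.0224, called in 4 of 10 leave-out fits, highest adjusted p = 0.305). MKI67, a marker of cycling cells, was measured at 85.4, 40.6 and 75.9 CPM with NIC1 and 79.4, 51.7 and 72.8 CPM with DNMAML (log2 change -0.06 ± 0.106). None of the 13 mitochondrially encoded genes was called by edgeR, and their median was -0.12. Some members of the marker lists of other cell types were also called: CD22 (1.15 ± 0.268), ITGA2B (1.80 ± 0.50) and PDGFRB (0.84 ± 0.173) higher and KRT18 (-1.12 ± 0.185) lower. The called shares were 25% of 4 tested B cell genes, 33.3% of 3 erythroid and megakaryocyte genes and 25% of 8 fibroblast and epithelial genes. ITGA2B had only 39 counts over the NIC1 and 12 over the DNMAML libraries. CD22 had means of 4.10 and 1.86 CPM, and the groups overlapped for PDGFRB. CD22 was called in 5, ITGA2B in 4 and PDGFRB in 9 of 10 leave-out fits, with highest adjusted p of 0.120, 0.325 and 0.0937.

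The same contrast was measured in the other 6 libraries of these constructs, which had IL-4 at 20 ng/ml for 3 h. There 1775 of 14670 genes were called (12.1%), 1014 higher (6.91%) and 761 lower (5.19%). Of the 1410 genes called without IL-4, 1402 were tested with IL-4, 1380 had the same sign and 997 were called with that sign, which is 70.7% of the calls without and 56.2% of the calls with IL-4. Among all 14387 genes tested in both conditions, called or not, 10520 had the same sign and 1724 were called with IL-4 in that sign. A library with and one without IL-4 may share a culture, so the conditions are not independent. CD3D changed by 3.90 ± 0.273 with IL-4 against 3.89 without, HES4 by 2.74 ± 0.185 against 2.49, MMP2 by -1.29 ± 0.0713 against -1.28 and SLC2A5 by -2.58 ± 0.228 against -1.99. EGLN3 was the only gene called in opposite directions.

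**Figure D5:**
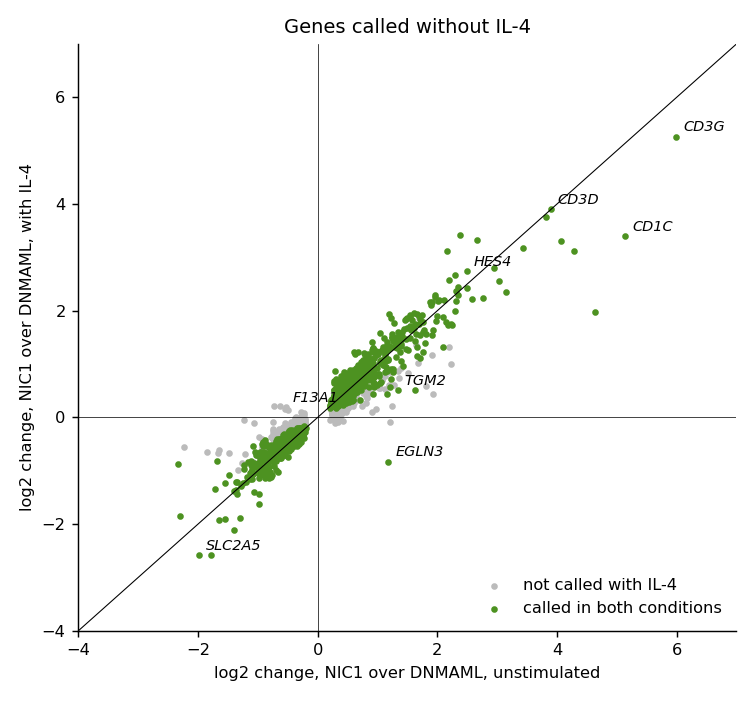
Log2 change in NIC1 over DNMAML without IL-4 (horizontal) and with IL-4 (vertical) for the genes called without IL-4 and tested in both, with the line of equal values; green marks the 997 called with the same sign and EGLN3. Most points lie near the line, and EGLN3 lies at 1.18 and -0.83.

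The plot of both conditions shows how far each gene kept its change. A test of the difference between conditions over all 18 libraries, with a block for each construct and experiment number, called 13 of 15037 genes (0.0865%). With IL-4 the change was more positive for 11 (0.0732%) and more negative for 2 (0.0133%, EGLN3 and SDC2). The 13 were F13A1, PDE4A, FOXP4, BCL7A, NCR3LG1, EPAS1, FCGR2A, PTPN14, RREB1, EGLN3, SMOX, SDC2 and MAP3K14. With a block for the experiment number alone edgeR called 0, with 610 genes at an unadjusted p under 0.05. Among genes of the named groups, TGM2 changed by 1.34 without and 0.52 with IL-4 and JAG1 by 1.16 and 0.44, and neither difference between conditions passed that test.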

How the data were processed

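RNA sequencing of 18 THP-1 libraries was deposited as 1 table per library of raw read counts per gene. The authors deposited counts that are not normalized, and the submitters' processing notes name FastQC, Trimmomatic, HISAT2, HTSeq, DESeq2 and GRCh38.p12. No source read here gives their versions or settings, the gene annotation used or how strand was treated, so reads of overlapping or antisense genes may not be separated. Between 24.4% and 27.7% of the entries of the 6 libraries compared named no gene and were left out. Symbols were found for 56948 of 58051 genes, and coordinates are those of GENCODE release 29 (57447 genes found).

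The comparison used edgeR 4.0.16 in R 4.3.3: TMM scaling, filterByExpr, a robust quasi-likelihood fit of the 9 unstimulated libraries in 3 groups with the experiment number as a block, and Benjamini-Hochberg adjustment with a threshold of 0.05. Standard errors were derived from the F statistic. The scripts were tested on simulated data. Over all genes, the deviations of same-numbered libraries correlated with r between 0.222 and 0.775 (9 pairs, median 0.433). For 18 pairs with different numbers r lay between -0.648 and 0.367 (median -0.410). Deviations within a group cancel out, which by itself lowers r between different numbers. NIC1 of experiment 1 correlated at 0.222 with DNMAML of experiment 1 and at 0.281 with that of experiment 3. NIC1 of experiment 3 correlated at 0.238 with DNMAML of experiment 3 and at 0.367 with that of experiment 1. Between NIC1 and DNMAML the pairing thus showed in experiment 2 only (r = 0.619), and the numbers of the labels were used as the block. No 2 libraries of a group agreed within sampling noise (chi-square per degree of freedom between 6.56 and 33.5).

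Named genes are NOTCH1 and MAML1, called Notch genes, the 12 highest and 12 lowest changes, up to 4 called members of each other list by smallest p with up to 2 uncalled textbook members, and the 6 largest rises and falls in CPM. The 26 lists hold 614 members, of which 612 matched. Members and lists were chosen with earlier results of these data known. For the main comparison 20 alternatives were run, 18 of them planned, with limma 3.58.1 (voom) and DESeq2 1.42.0 among the tools. Tables and figures were made in Python 3.11.15 with matplotlib 3.10.9. Results for a few genes are not reported here.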

Additional observations from a re-analysis of the deposited data

Results flagged for a closer look

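EGLN3 and F13A1 were singled out as the named genes that passed the test of the difference between conditions with and without IL-4. They were thus chosen by the adjusted p given here for that test. EGLN3, which encodes a prolyl hydroxylase that marks the hypoxia-inducible factor for degradation, was measured without IL-4 at 6.4, 5.82 and 6.25 CPM with NIC1 and 2.80, 1.69 and 3.69 CPM with DNMAML. In the presence of IL-4 the levels were 9.78, 5.20 and 9.51 CPM with NIC1 and 19.9, 8.27 and 15.7 CPM with DNMAML. The log2 change went from 1.18 ± 0.232 to -0.83 ± 0.115, a difference of -2.02 ± 0.321 (edgeR adjusted p = 0.0356).

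F13A1, the gene of coagulation factor XIII subunit A, was measured without IL-4 at 37.0, 26.7 and 32.4 CPM with NIC1 and 56.0, 45.4 and 38.2 CPM with DNMAML, without overlap (log2 change -0.54 ± 0.106). After IL-4 the levels were 70.9, 59.3 and 69.9 CPM against 63.7, 59.7 and 52.1 CPM, and the groups overlapped. The difference was 0.73 ± 0.0989 (edgeR adjusted p = 0.00117), and the change without IL-4 was not called without experiment 2 (adjusted p = 0.0547). Both differences were called with a block for each construct and experiment number, where 1304 genes had an unadjusted p under 0.05, and neither was called with a block for the experiment number alone.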

How the results depend on the processing

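The counts of calls depend on the replicate block. For NIC1 against DNMAML, 1410 genes were called with the experiment number as a block and 70 without it (53 higher, 17 lower). A fit without the block over all 18 libraries, added after the data were seen, called 248 (156 higher, 92 lower). With the block, the 6 libraries alone gave 838 calls (496 higher, 342 lower), and all 18 gave 2082, with 974 lower. Leaving out 1 library or 1 experiment gave between 471 and 1810 calls, between 309 and 984 higher and between 162 and 826 lower, the fewest without experiment 3. Without NIC1 replicate 3, 390 were lower, and without DNMAML replicates 1, 2 and 3, 369, 405 and 346. DESeq2 size factors, upper-quartile scaling, no filter, DESeq2 and limma-voom gave 1395, 1408, 1997, 1071 and 1446 calls. With IL-4, 91 genes were called without the block (74 higher, 17 lower), and the test of the difference between conditions called 0 genes in either direction with the experiment number alone as the block. Over the named genes, 2095 of 2479 comparisons with an alternative stayed on the same side of the threshold in the same direction, 368 were no longer called, 16 were newly called and 0 reversed. Fits of 16 libraries (1970 calls) and, with IL-4, without DNMAML replicate 3 (1409 calls) were also added after the data were seen. The cause of these differences was not tested.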
